A study of Drosophila melanogaster with 8 samples.

Results

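Oxidative phosphorylation genes were taken as the genes whose assigned name in the authors' deposited table starts with ND- (complex I), UQCR (complex III), COX (complex IV) or ATPsyn (complex V), with a site at most 1000 bp from the transcription start site (TSS). Each gene was represented by its site of highest mean RNA polymerase II (RNAPII) concentration, which gave 33 genes of the 4278 that had such a site. Complex I contributed 12 of them, complex III 6, complex IV 5 and complex V 10. The libraries were RNAPII chromatin immunoprecipitations (ChIP-seq) and matching inputs from Drosophila melanogaster S2 cells, a hemocyte-like line, treated against the linker histone H1 or, as the control, against the bacterial gene LacZ, which has no fly counterpart. There were 2 precipitations and 2 inputs of H1 knockdown cells and 2 precipitations and 2 inputs of LacZ cells, 8 libraries in all, and nothing in the labels tells whether replicates were independent cultures, so the p-values of the authors may reflect technical spread only.

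Oxidative phosphorylation is carried out in the inner mitochondrial membrane. Complex I oxidises NADH, complex III passes electrons from ubiquinol to cytochrome c, complex IV reduces oxygen, and complex V, the ATP synthase, uses the resulting proton gradient to make ATP. The RNAPII sites concern only the nuclear genes of these complexes, since the genes of the mitochondrial genome are transcribed by a separate polymerase.

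At the chosen site of every oxidative phosphorylation gene, the deposited RNAPII concentration was slightly higher in H1 knockdown than in LacZ cells. The same held at most genes with a site. No member's difference passed the multiple-testing threshold. All values are the authors': a mean log2 read concentration per condition and site, a log2 fold (H1 knockdown minus LacZ), a p-value and a false discovery rate (FDR) from DiffBind. The authors' table holds no values per library and no standard errors, and read depth is unknown, so no spread between replicates could be given. All 33 genes had a fold above 0 in the authors' deposited table, where 93.5% of the 4278 genes did. For 28 of the 33 the chosen site was a peak of the knockdown list. With the LacZ list alone 24 of 25 members had a fold above 0. Over all 33 members the median fold was 0.22, with a range of 0.02 to 0.52, beside a median of 0.16 over all genes. That difference could not be tested without values per library. Set against that all-gene median, 25 members lay above it and 8 below. No member passed an FDR of 0.05 by DiffBind (0% of all genes did), and every member's FDR was 1. The authors' own calls, which mark an unadjusted p under 0.05, named 2 of the 33 higher (6.06%), against 6.76% of all genes. Both were among 7 members that entered through a peak of the knockdown list only, and the 26 members with peaks in both lists had a median fold of 0.18 with 0 called, against 0.14 and 4.28% over the 3553 genes with peaks in both. The authors named none lower, against 0.0234% of all genes. A p under 0.1 was reached by 7 members (21.2%), against 14.6% of all genes. Among the 26 members with peaks in both lists 4 reached it (15.4%), against 10.4% of the 3553 genes with peaks in both.

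**Figure D1:**
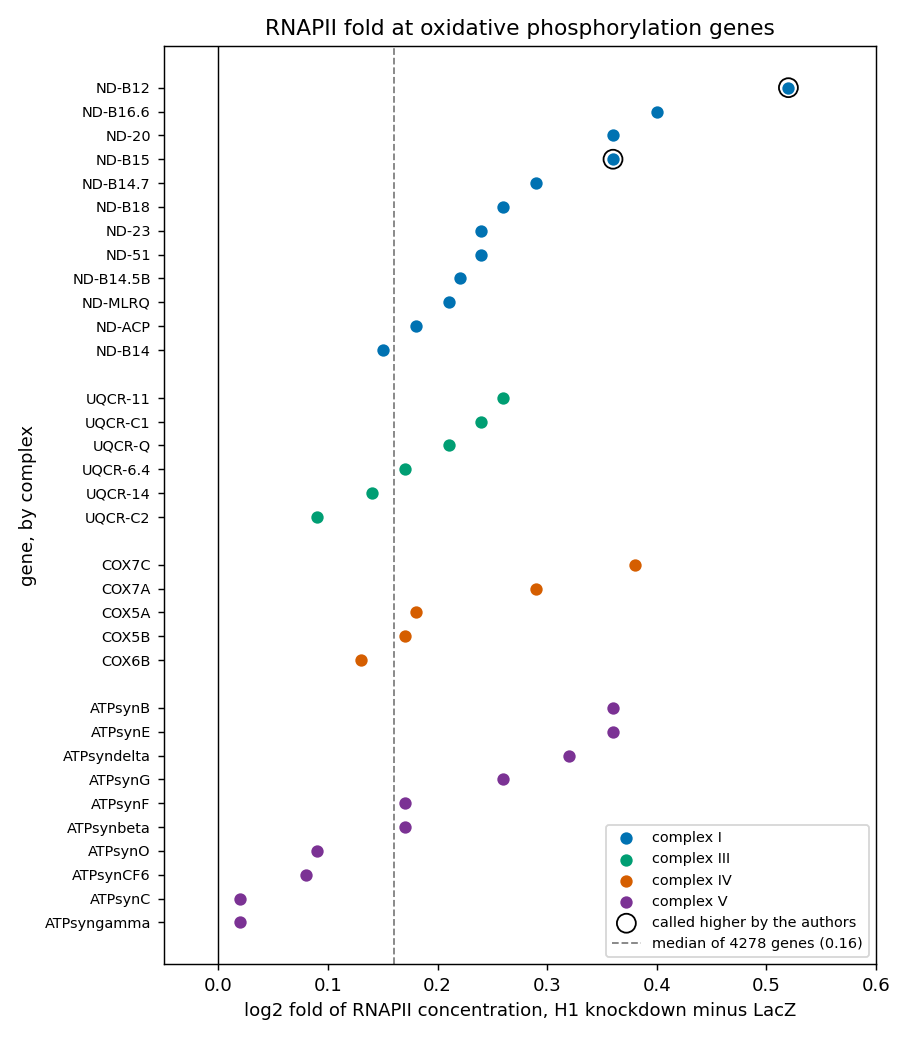
Each point is 1 gene; the x axis gives the authors' log2 fold of RNAPII concentration, H1 knockdown minus LacZ, and genes are listed by complex in order of fold. All 33 points lie above 0, 25 lie above the dashed all-gene median of 0.16, and the 2 circled genes, ND-B12 and ND-B15, are those the authors called higher.

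Hemocyte markers were consulted for the labelled cell type. Sites within 1000 bp of a TSS were assigned to 10 of 15 listed hemocyte marker names, among which He and Hemese name the same gene. Highest in fold were the type IV collagen gene vkg at 0.14 and the scavenger receptor gene crq at 0.10 in the authors' deposited table. He at -0.04 and Hml at -0.02 were lowest. Of 11 listed markers of other cells, 1 had such a site, the neuronal gene elav. The 10 hemocyte genes had a median fold of 0.01, none was called by the authors, and elav had 0.13 in the authors' deposited table. The files hold no measure of how far H1 itself was depleted.

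The member sites lay close to start sites. The authors' annotation placed 30 of the 33 at promoters and 3 at transcription termination sites, and 25 lay within 100 bp of the assigned TSS. UQCR-11, at 458 bp, was the member farthest from its TSS, and ATPsynG, at 181 bp, came next. Just outside the limit of 1000 bp lay an exonic site of ATPsynbeta at 1101 bp, which was included because all sites of that gene were considered, and a site 1980 bp upstream of ND-AGGG, which left this complex I gene out. By arm of the dm3 genome, 9 members lay on 3R, 7 on 2R, 6 on X, 5 on 3L and 4 on 2L, with ATPsynbeta on chromosome 4 and UQCR-11 on the heterochromatic scaffold 3LHet.

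Many of these sites carried the names of more than 1 gene. At 16 of the 33 members, the site itself or the overlapping peak of the other condition also named another gene. At UQCR-14, UQCR-Q and ATPsynO that name came from a neighbour's termination site and not from a promoter. For ND-B16.6 the annotated promoter was that of the citrate synthase gene kdn, for COX7A that of the small GTPase gene Arl2, and for ATPsynCF6 that of the vesicle coat gene Sec13. At such sites RNAPII of the neighbours cannot be told apart. The 17 members that named no other gene had a median fold of 0.24.

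Not every subunit gene had a site of its own. A Release 6 gene table lists 80 nuclear genes with these name prefixes, and 33 of them were members. Coverage was 6 of 9 genes for complex III, 10 of 15 for complex V, 5 of 16 for complex IV and 12 of 40 for complex I. Of the 80, 21 carry names of like-paralogs, such as ND-20L and ATPsynbetaL, and none of these was a member. Among the 7 nuclear core subunits of complex I, which hold its flavin and iron-sulphur clusters and its ubiquinone site, ND-20, ND-23 and ND-51 were members. For ND-49 and ND-30 a promoter was annotated in an entry credited to a neighbour, and ND-75 and ND-24 had neither.

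Complex I had the highest median fold of the 4 complexes, 0.25, from 0.15 at ND-B14 to 0.52 at ND-B12, and 11 of its 12 genes lay above the all-gene median. How genes entered moved with this value: 7 of the 12, both called genes among them, had a site only because of a peak in the knockdown list, where they are higher, and no gene of another complex did. The other 5 had a median fold of 0.21 with none called, beside 0.19 for complex III, the next highest. With the LacZ list alone complex IV stood first, at 0.23 against 0.21 for complex I, and among members naming no other gene complex V did, at 0.27 against 0.24. The first value leaves out COX6B, the complex IV gene of lowest fold, whose LacZ peak was credited to CG18809 with a fold of 0.13. The second rests on ATPsynB, ATPsynE, ATPsynbeta and ATPsyngamma alone, with folds of 0.36, 0.36, 0.17 and 0.02. The differences between complexes could not be tested. Both members that the authors called higher belonged to complex I and encode accessory subunits, which surround the catalytic core. ND-B12 (dm3 2R, 17545483 to 17545807, promoter) had a log2 concentration of 7.54 in H1 knockdown and 7.02 in LacZ cells in the authors' deposited table, with a fold of 0.52, or a ratio of 1.43 (DiffBind p = 0.0145, FDR of 1). ND-B15 (2R, 10643606 to 10644276) had 8.30 in H1 knockdown and 7.93 in LacZ cells, a fold of 0.36 and a ratio of 1.28 in the authors' deposited table (DiffBind p = 0.0462, FDR of 1). The annotated promoter at the ND-B15 site was that of CG10151.

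ND-B16.6, whose human counterpart GRIM-19 has also been linked to cell death, had 7.31 in H1 knockdown and 6.91 in LacZ cells, with a fold of 0.40 in the authors' deposited table (DiffBind p = 0.0752). Among core subunits, ND-20, an iron-sulphur protein next to the ubiquinone site, had concentrations of 7.14 in H1 knockdown and 6.77 in LacZ cells and a fold of 0.36 in the authors' deposited table. These were the lowest concentrations of any member in both conditions, at the shortest member site (260 bp), and the p was 0.145 (DiffBind). Per kb of site ND-20 was not lowest, with log2 values of 9.08 in H1 knockdown and 8.71 in LacZ cells. ND-B15, for 1, had 8.88 in H1 knockdown and 8.51 in LacZ cells. The authors' deposited table gave ND-23, another iron-sulphur protein, 8.39 in H1 knockdown and 8.14 in LacZ cells, and ND-51, the flavoprotein that binds NADH, 8.70 in H1 knockdown and 8.46 in LacZ cells. Both had a fold of 0.24.

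Of the other genes placed in complex I by name alone, the authors' deposited table gave ND-B14.7 concentrations of 7.32 in H1 knockdown and 7.03 in LacZ cells, with a fold of 0.29. ND-B18 had 7.96 in H1 knockdown and 7.70 in LacZ cells, with a fold of 0.26 in the authors' deposited table. At the low end stood ND-B14 (8.04 in H1 knockdown and 7.89 in LacZ cells, fold 0.15), ND-ACP, the mitochondrial acyl carrier protein (8.52 in H1 knockdown and 8.34 in LacZ cells, fold 0.18), and ND-MLRQ (8.80 in H1 knockdown and 8.58 in LacZ cells, fold 0.21), all from the authors' deposited table. ND-B14.5B followed in the authors' deposited table with 7.47 in H1 knockdown and 7.25 in LacZ cells and a fold of 0.22.

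**Figure D2:**
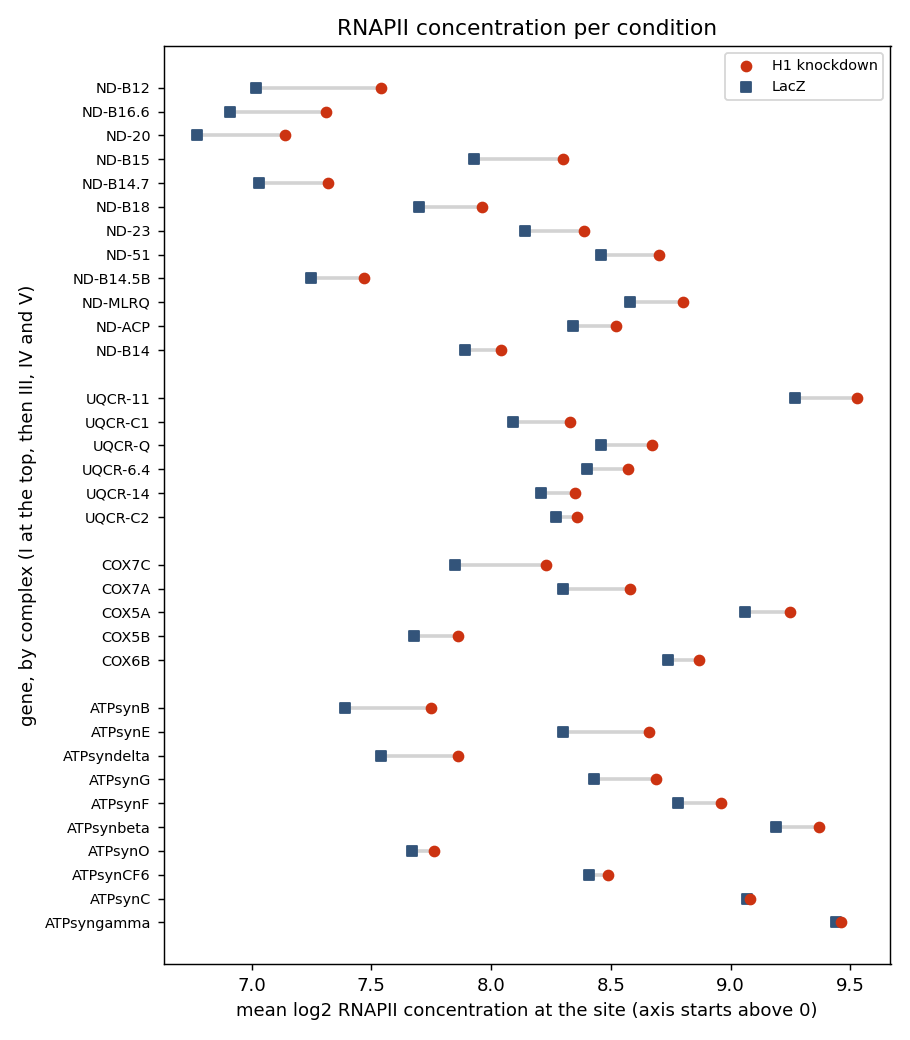
Each row is 1 gene; the circle gives its mean log2 RNAPII concentration in H1 knockdown cells and the square that in LacZ cells, as the authors' table gives them, on an axis that starts above 0. The circle lies to the right of the square for all 33 genes, by 0.52 at ND-B12 and by no more than 0.02 at ATPsynC and ATPsyngamma.

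The authors called peaks once per condition on pooled libraries, and member sites were next looked up in both lists. At 7 of the 33 member genes (21.2%) the site was a peak of the H1 knockdown list with no overlapping peak in the LacZ list (16.3% of all 4278 genes were of this kind). All 7 belonged to complex I: ND-20, ND-B12, ND-B14.5B, ND-B14.7, ND-B15, ND-B16.6 and ND-B18. All 6 genes of complex III, 5 of complex IV and 10 of complex V had peaks in both lists, as had the other 5 of complex I. The 7 had a median fold of 0.36 and a median concentration of 7.30, and 2 were called higher (28.6%). Over all 696 genes of this kind the median fold was 0.32, the median concentration was 7.40 and 19.7% were called higher. The 5 complex I genes with peaks in both lists had a median concentration of 8.44. Their sites were also wider, with a median of 646 bp against 317 bp for the 7. Folds and peak lists come from the same libraries, so they are not separate evidence. A missing peak does not mean missing RNAPII: the LacZ concentrations of the 7 genes ran from 6.77 at ND-20 to 7.93 at ND-B15. Whether fewer peaks passed because of depth in the LacZ libraries was not tested.

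Folds were larger at sites of low concentration, in members and in genes at large. Across the 33 members, fold and mean concentration had a Pearson r of -0.57 and a Spearman rho of -0.51, and across all 4278 genes they had -0.42 and -0.50. These are descriptions across genes that share the same libraries, and the fold is made from the 2 concentrations that the mean averages. With genes divided by concentration into 4 bins of nearly equal size, the median fold of all genes was 0.27 in the lowest bin, then 0.21, 0.13 and 0.08 in the highest. The members' medians in these bins were 0.305 for 10 genes, 0.21 for 12, 0.21 for 6 and 0.17 for 5. Against the median of their own bin, 20 members lay above, 12 below and 1 at it. For complex I this count was 8 of 12. It included ND-20, ND-B12, ND-B14.7, ND-B15 and ND-B16.6, which entered only through a peak of the knockdown list, where they are higher. In the lowest bin 4 of 6 complex I genes lay above the bin median, all of them of this kind. The count is thus not separate from how genes entered. Its members had a median concentration of 7.90, the lowest of the 4 complexes, with none in the highest bin. Concentrations are per site and not corrected for length, and complex I sites were also the shortest by median. Their median width was 368 bp, against 533 bp for complex III, 532 bp for complex IV and 645.5 bp for complex V.

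**Figure D3:**
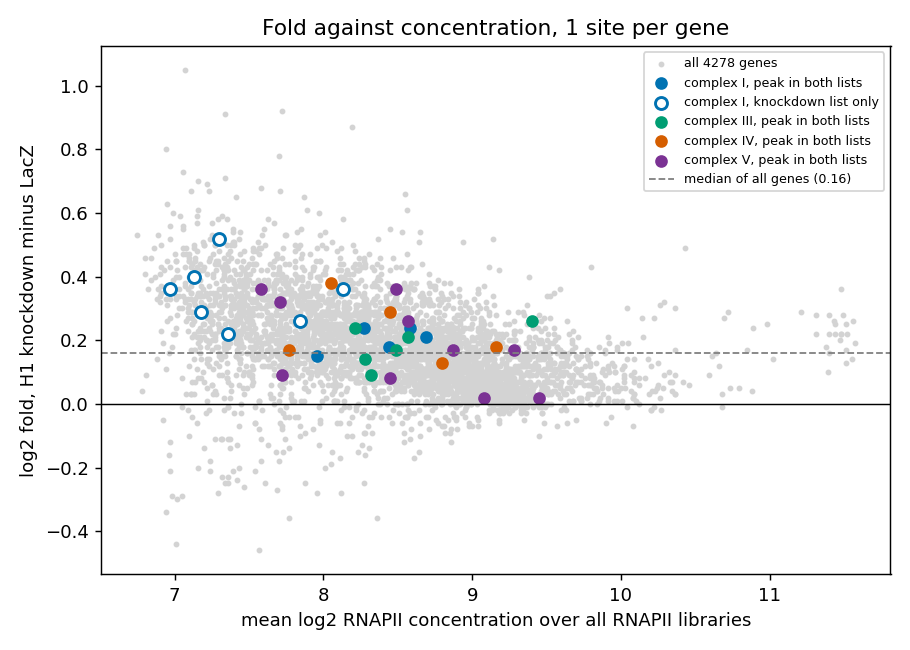
Each point is 1 gene at its site of highest concentration; the x axis gives the authors' mean log2 RNAPII concentration and the y axis the log2 fold, H1 knockdown minus LacZ. Coloured points are the 33 oxidative phosphorylation genes, open ones the 7 complex I genes with a peak in the knockdown list only, which reach down to a concentration of 6.97; the grey cloud of all 4278 genes has its higher folds at low concentration.

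The median fold of complex III was 0.19, within 0.09 to 0.26, and 4 of 6 lay above the all-gene median. UQCR-11 (3LHet, 606026 to 607301, at a termination site) had 9.53 in H1 knockdown and 9.27 in LacZ cells in the authors' deposited table, the highest fold of the complex at 0.26 (DiffBind p = 0.0936). Of the 2 large core proteins, UQCR-C1 had 8.33 in H1 knockdown and 8.09 in LacZ cells with a fold of 0.24, and UQCR-C2 had 8.36 in H1 knockdown and 8.27 in LacZ cells with a fold of 0.09, the lowest of the complex, in the authors' deposited table. A test of that difference was not possible with these files. Among the small subunits, the authors' deposited table gave UQCR-Q 8.67 in H1 knockdown and 8.46 in LacZ cells (fold 0.21), UQCR-6.4 8.57 in H1 knockdown and 8.40 in LacZ cells (fold 0.17), and UQCR-14 8.35 in H1 knockdown and 8.21 in LacZ cells (fold 0.14). The UQCR-14 site was annotated at the termination site of the ethanolamine kinase gene eas.

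The 5 genes of complex IV, cytochrome c oxidase, encode nuclear subunits that surround the mitochondrially encoded catalytic core. Their median fold was 0.18. COX7C (2R, 5936786 to 5937284) came closest to the authors' call without reaching it, with 8.23 in H1 knockdown and 7.85 in LacZ cells and a fold of 0.38 in the authors' deposited table (DiffBind p = 0.0508). COX7A had 8.58 in H1 knockdown and 8.30 in LacZ cells, a fold of 0.29 in the authors' deposited table (DiffBind p = 0.108). The other 3 lay near the all-gene median: in the authors' deposited table the fold was 0.18 for COX5A (9.25 in H1 knockdown and 9.06 in LacZ cells), 0.17 for COX5B (7.86 in H1 knockdown and 7.68 in LacZ cells) and 0.13 for COX6B (8.87 in H1 knockdown and 8.74 in LacZ cells). In the LacZ list the peak overlapping the COX6B site was credited to CG18809.

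Complex V genes had a median fold of 0.17 and ranged from 0.02 to 0.36, with 6 of 10 above the all-gene median. Among members of the peripheral stalk, which holds the catalytic head still, 1 was at the upper end of that range and the others were below the all-gene median. The authors' deposited table gave ATPsynB 7.75 in H1 knockdown and 7.39 in LacZ cells with a fold of 0.36 (DiffBind p = 0.0733), ATPsynO 7.76 in H1 knockdown and 7.67 in LacZ cells with a fold of 0.09, and ATPsynCF6 8.49 in H1 knockdown and 8.41 in LacZ cells with a fold of 0.08. The rotating central stalk was likewise divided. ATPsyndelta had 7.86 in H1 knockdown and 7.54 in LacZ cells with a fold of 0.32, and ATPsyngamma had 9.46 in H1 knockdown and 9.44 in LacZ cells with a fold of 0.02, from the authors' deposited table. At the shorter LacZ peak of ATPsyngamma the fold was -0.02 in the authors' deposited table.

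Of the membrane subunits, ATPsynC, which forms the proton-driven ring, had 9.08 in H1 knockdown and 9.07 in LacZ cells and a fold of 0.02 in the authors' deposited table (DiffBind p = 0.931). The overlapping peak of the knockdown list was credited to the microRNA gene mir-4949. ATPsynE (3R, 10152169 to 10153081) had 8.66 in H1 knockdown and 8.30 in LacZ cells, a fold of 0.36 in the authors' deposited table (DiffBind p = 0.0526). The authors' deposited table gave ATPsynG 8.69 in H1 knockdown and 8.43 in LacZ cells (fold 0.26) and ATPsynF 8.96 in H1 knockdown and 8.78 in LacZ cells (fold 0.17).

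ATPsynbeta, the catalytic subunit of the ATP synthase head, had unlike folds at its sites. Its promoter (chromosome 4, 1052060 to 1052923) had 9.37 in H1 knockdown and 9.19 in LacZ cells with a fold of 0.17 in the authors' deposited table (DiffBind p = 0.294). In the authors' deposited table the peak of the LacZ list there had a fold of 0.15. An exonic site 1101 bp downstream of the TSS (1053427 to 1053756) had 7.36 in H1 knockdown and 6.66 in LacZ cells with a fold of 0.71 in the authors' deposited table, and the authors called it higher (DiffBind p = 0.00339, FDR = 0.963). That site was a peak of the knockdown list only and carried no repeat annotation. The difference between the promoter and the exonic site was not tested.

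Levels were compared between genes per length, as log2 concentration per kb of site. In H1 knockdown cells they ran from 8.79 at ATPsynE to 9.98 at ATPsynCF6, and in LacZ cells the same genes were lowest and highest, at 8.43 and 9.90. Both ends depend on which peak gave the length. The ATPsynE site was a knockdown peak of 913 bp, where the LacZ peak had 262 bp. The ATPsynCF6 site was a LacZ peak of 357 bp inside a knockdown peak of 1093 bp credited to Sec13. The order of genes by level is therefore not settled. Peak enrichment over input, the authors' own value, can be ranked only within a list. In the knockdown list, the peaks at the 33 members had a median percentile of 48.4 among the 7472 peaks, from 15.8 at ND-20 to 94.1 at ATPsynbeta. In the LacZ list, 26 members had a median percentile of 47.4 among the 6885 peaks, again with ATPsynbeta highest at 94.4.

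Beyond 1000 bp, the table credited 40 further entries to 4 of these genes, and 38 of them carried a repeat annotation. The 13 entries credited to ND-MLRQ beyond that limit lay 17885 to 77622 bp from its TSS, all at repeats. Their median fold was -0.14 in the authors' deposited table, with 10 below 0. The 2 promoter entries of that gene had 0.21. Among the 13, 8 at the retrotransposon Nomad had folds from -0.21 to 0.04 and 2 at Quasimodo had 0.17, in the authors' deposited table. UQCR-11 had 20 entries between 7704 and 209672 bp away, all at repeats, with a median fold of 0.00 and a range of -0.21 to 0.03 in the authors' deposited table, and its 2 near entries had 0.26 and 0.25. For ND-AGGG, 6 entries had folds from -0.19 to 0.13 in the authors' deposited table. The authors called none of the entries beyond 1000 bp of these 3 genes. How uniquely reads were placed at these repeats is not known from the files.

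**Figure D4:**
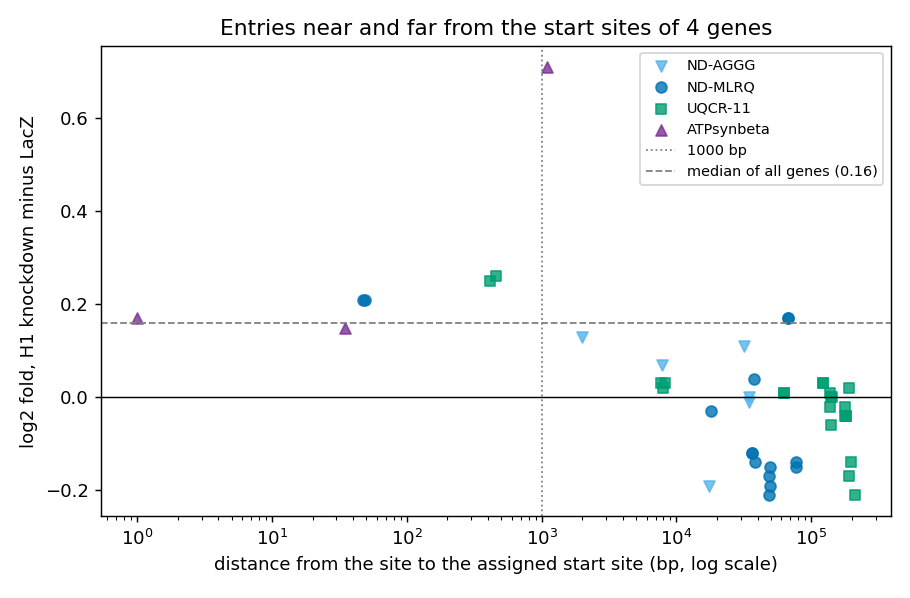
Each point is 1 entry credited to ND-AGGG, ND-MLRQ, UQCR-11 or ATPsynbeta; the x axis gives its distance to the TSS in bp on a log scale and the y axis the authors' log2 fold, H1 knockdown minus LacZ. The 6 entries within 1000 bp lie between 0.15 and 0.26, those farther away of the first 3 genes reach from -0.21 to 0.17, and the exonic ATPsynbeta site stands alone at 0.71.

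Promoters of 8 more oxidative phosphorylation genes were named in the annotation of entries credited to a neighbour, which the prefixes therefore missed. Their folds had a median of 0.235 and ran from 0.12 to 0.49. The authors called 1 of these 8 higher, against 6.76% of all genes. Peaks of the knockdown list only made up 3 of the 8, at ND-49, ND-30 and ND-MNLL, against 16.3% of all genes. The called entry belonged to these 3, and of all genes of this kind 19.7% were called higher. The called entry was that annotated at the promoter of the complex I core gene ND-49 and credited to Ephrin (chromosome 4, 592349 to 592606). It had 7.09 in H1 knockdown and 6.60 in LacZ cells and a fold of 0.49 in the authors' deposited table (DiffBind p = 0.0453). At ND-MNLL, credited to the Golgi tether gene p115, the fold was 0.35, and at ND-ASHI, credited to the fumarase gene Fum1, it was 0.34, in the authors' deposited table. The remaining folds were 0.26 at ND-30, 0.21 at ND-MWFE, 0.14 at ATPsynD, 0.13 at ND-18 and 0.12 at COX8 in the authors' deposited table.

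Other genes of the pathway carry names outside the prefixes. Of 16 such subunit and cytochrome c genes, 9 had a site within 1000 bp, with a median fold of 0.20, and the authors called none. The authors' deposited table gave the highest folds to cype, a complex IV subunit, at 0.26 (7.75 in H1 knockdown and 7.49 in LacZ cells), and Cyt-c1, the cytochrome of complex III, at 0.24 (8.69 in H1 knockdown and 8.45 in LacZ cells). The Rieske iron-sulphur protein gene RFeSP also had 0.24 in the authors' deposited table. Lowest were Cyt-c-p, which encodes the soluble electron carrier cytochrome c, at 0.05 (9.93 in H1 knockdown and 9.88 in LacZ cells), and the complex II gene SdhB at 0.09, in the authors' deposited table. The ATP synthase gene blw, for the alpha subunit that alternates with beta in the head, had a fold of 0.10 in the authors' deposited table.

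Tricarboxylic acid cycle and pyruvate dehydrogenase genes, which supply the chain with electrons, had a median of 0.13 over 13 of 14 genes, and the authors called 1 of them (7.69%, against 6.76% of all genes). That gene was Mdh2, the mitochondrial malate dehydrogenase, with a fold of 0.42 in the authors' deposited table (DiffBind p = 0.0187). Fum1 came next at 0.34, and Nc73EF, for a subunit of the oxoglutarate dehydrogenase complex, and kdn were lowest at -0.06 and 0.08, in the authors' deposited table. Genes for mitochondrial DNA expression and its regulators had a median of 0.255 over 4 of 11 genes. The authors called 1 of these 4 genes (against 6.76% of all genes), mtTFB1, a mitochondrial RNA methyltransferase gene, with a fold of 0.55 in the authors' deposited table (DiffBind p = 0.00617). The authors' deposited table gave 0.34 for the Ets factor gene Ets97D, 0.17 for mtSSB and 0.13 for srl, the fly counterpart of the coactivator PGC-1. Assembly factors had sites at 2 of 10 genes, sicily with 0.23 and Sirup with 0.11, and carriers at 3 of 6, porin with 0.17, Mpcp2 with 0.11 and the ADP/ATP carrier sesB with 0.08, in the authors' deposited table.

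Mitochondrial ribosomal protein genes, which translate the mitochondrially encoded subunits of the same complexes, had a site at 15 of 73 genes. Their median fold was 0.31, and the authors called 4 of the 15 higher (26.7%, against 6.76% of all genes). Peaks of the knockdown list only made up 6 of the 15 (40.0%, against 16.3% of all genes). In the authors' deposited table mRpL12 had 0.57, mRpL37 0.45, mRpS25 0.43 and mRpS18A 0.35, and mRpL18 and mRpS5 had the lowest folds at 0.10. Their median concentration, 7.77, was below that of the oxidative phosphorylation genes, 8.32, at a median site width of 420 bp against 507 bp. Cytosolic ribosomal protein genes had, over 70 of 88 genes, a median fold of 0.10, with none called, and median concentrations of 9.04 in H1 knockdown and 8.94 in LacZ cells. Differences between these lists were not tested.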

How the data were processed

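The libraries were RNAPII precipitations and inputs of S2 cells. Per the labels' protocols, fixation took 10 minutes in 1.8% formaldehyde and shearing was by sonication. The submitters' processing notes name the genome build dm3 and the tools Bowtie2 (2.2.2), MACS (1.4.2), DiffBind (2.10.0) and DESeq2 without settings; peak names say MACS2. Per the file headers, the deposited table gives log2 concentrations, a log2 fold, a p-value and FDR per entry, a fold enrichment ratio, the −log10 of q and a pileup signal, annotated with Homer; the deposited lists add an integer score. Neither pileup nor score entered any result. The scaling of libraries by the authors is not stated in the sources used here; 0 is therefore no fixed zero point for the fold.

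The table stacks the 7472 knockdown and 6885 LacZ peaks as 14357 entries. All 581 entries that the authors called have an unadjusted p under 0.05, and no other entry has. Depth is unknown. No values per library were held, so the planned fit across libraries was not run, and no test was made here. Members were chosen by name, the site of highest concentration standing for each gene. Peaks of the lists were matched by an overlap of at least 1 bp. The named genes were all members, all sites of ATPsynbeta, and in other lists the 2 highest and 2 lowest folds and each gene called. Cytosolic ribosomal protein genes were described as a list only. RFeSP, blw and the promoters credited to neighbours were named after their values were seen. Promoter motifs were not searched, as no sequence was used here. Gene symbols and accessions were matched to a RefSeq Release 6 table, which held 33 of 33 members and 4451 of the 4755 gene names the authors assigned. A gene that the authors list under another symbol was therefore counted as without a site. Members and lists were chosen with earlier results of these data known. Site selection was tested on simulated data. Alternatives concerned the site per gene, the list, the distance, concentration, peak significance, thresholds, centring and overlap. Software was Python 3.11.15 with pandas 2.3.3, matplotlib 3.10.9, scipy 1.17.1 and numpy 2.4.6.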

Additional observations from a re-analysis of the deposited data

How the results depend on the processing

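The median fold of all members, 0.22, became 0.17 with the LacZ list alone (25 genes), 0.20 with no distance limit (34 genes) and 0.18 among the upper 75% of entries by concentration (27 genes). Complex medians moved to 0.21 for complex I and 0.23 for complex IV with the LacZ list alone, to 0.16 for complex III with no distance limit, and to 0.22 for complex V with the mean of all sites of a gene. The count of members called higher, 2, became 0 with the LacZ list alone, 1 among the upper 75% by concentration and 0 at an unadjusted p under 0.01. The count of members with a fold above 0, 33 of 33, became 32 of 33 with the site closest to the TSS. It was also 32 of 33 with the mean of all sites, 24 of 25 with the LacZ list alone and 32 of 34 with no distance limit. Subtraction of the all-gene median left 25 of 33 members above 0, which restates the count above that median and is no separate check. Both of the following alternatives were chosen after seeing the data. Members with peaks in both lists had a median of 0.18, or 0.21 for complex I, with 0 called. Members naming no other gene had a median of 0.24, 0.24 for complex III and 0.27 for complex V, with 1 called and 17 of 17 above 0. In all, 65 of the recomputed values stayed within 0.01 or, for counts, 1.5 times, 18 moved and no median changed sign. The 65 include values that could not move. A distance limit of 500 bp kept every chosen site, since the farthest lay at 458 bp. A −log10 q of at least 5 did so too, since the lowest among chosen sites was 13.5. The tally is therefore no measure of stability. The order of the complexes did turn: complex IV stood above complex I with the LacZ list alone, and complex V above it among members naming no other gene (0.27 against 0.24). The first turn came with the loss of COX6B, whose LacZ peak was credited to CG18809. It also came with the loss of the 7 complex I genes that had a peak in the knockdown list only. Complex I then stood at 0.21 in place of 0.25. The second rested on ATPsynB, ATPsynE, ATPsynbeta and ATPsyngamma alone. At an unadjusted p under 0.01 the same 33 members entered and only the threshold differed; elsewhere fewer or other entries entered a moved value, and the cause was not tested further. No paired analysis was possible because the files hold no values per library, and for the same reason leaving out replicates, the replicate block and a second count tool were not run.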
